A study of Astyanax mexicanus with 96 samples.

Results

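The genes described here are the secreted and membrane-bound proteases that cut the extracellular matrix, the inhibitors that hold them back, and the proteases of the lysosome. They were chosen by symbol: mmp followed by a number (matrix metalloproteinases), timp (tissue inhibitors of metalloproteinases), adamts (a disintegrin and metalloproteinase with thrombospondin motifs) and cts followed by a letter (cathepsins). Of 27420 genes in the count table, 84 carried such a symbol, with 26 mmp, 4 timp, 21 adamts and 33 cathepsin genes. The symbol rule itself used no measured value, but it was chosen with earlier results of these data known. With case ignored, some symbols covered more than 1 gene id, and each id is described apart: ctsl.1 had 16 ids, ctsz had 4, and mmp9, mmp13a, mmp19, adamts2, adamts15b and ctsla had 2 each.

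Heart ventricles were taken from Astyanax mexicanus, the Mexican tetra, both from its river-dwelling surface form (surface fish, SF) and from cavefish of the Pachón population (PC). Cryo-injury is a freeze lesion of the ventricle, and sham surgery left out the freezing. Each of the 96 libraries held 1 ventricle, and each population gave 48 of them: 3 uninjured ventricles, 5 for each sham time (6 hps is 6 hours post sham, with 1 and 3 dps in days), and 5 for each time after cryo-injury (6 hpci in hours, then 1, 3, 7, 14 and 30 dpci in days). Injured ventricles up to 3 dpci were compared with sham of the same time, and those at 7, 14 and 30 dpci with uninjured ventricles, since the latest sham group used here was 3 dps. The fish were age-matched adults with no transgene or drug treatment named in their labels, which gave neither age nor sex.

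Matrix metalloproteinases are made as inactive precursors and, once cleaved, digest collagens, gelatin and other proteins outside the cell. The collagenase mmp13 opens fibrillar collagen, the gelatinase mmp9 degrades the denatured product and basement membrane collagen, and the membrane-bound mmp14 cuts collagen at the cell surface and activates other metalloproteinases. TIMPs bind the active site of these enzymes. ADAMTS proteases cut proteoglycans such as aggrecan and versican or trim procollagen, and cathepsins are mostly cysteine proteases that digest protein in lysosomes. In injured hearts such enzymes are known from infiltrating neutrophils and macrophages, which clear dead muscle, and from fibroblasts, which remodel the scar.

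Levels are given in CPM, read counts brought to the same library total with trimmed-mean (TMM) factors. The libraries were made with a kit that reads the 3′ end of each transcript about once, so levels of different genes were set side by side with no correction for length. Differences were tested across all genes with edgeR's quasi-likelihood test, with p-values adjusted by Benjamini and Hochberg over all tested genes. The word called is used for genes with an adjusted p under 0.05 that also changed by more than 2-fold. Like the study's own model, which was fitted with DESeq2, the model held unwanted variation estimated by RUVg, and the use of 1 factor and of edgeR were choices made here. This factor was not independent of the groups: its mean was higher in SF than in PC in 10 of 10 conditions, by 0.082 to 0.137, with ranges that did not overlap in 9 of them, and within each population its mean was lowest at 7 dpci. For this reason the same fit was also made without the factor. Each named call that only 1 of the fits made is marked as such, and the other named calls were made by both. Whether the factor carries technical or biological variation cannot be told apart here.

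Library totals ran from 672292 to 2586602 counts. Replicates of a group correlated at r = 0.919 or above over log2 CPM, and every library had at least 93.5% of the genes that separate the populations on its own population's side. The cardiomyocyte gene myl7 had group means of 7593 to 24400 CPM. The sum of 4 cardiomyocyte ids had group means of 7622 to 24450 CPM, so myl7 carried almost all of it. In SF this sum was lower at 1 and 7 dpci, times when members were called, in both directions at 1 dpci. At 1 dpci it was 4969 to 13490.0 CPM against 11360.0 to 24520.0 CPM in sham, with overlap. At 7 dpci it was 7589 to 13340.0 CPM against 15730.0 to 17770.0 CPM uninjured, with no overlap. Members were also called in SF at 3 and 14 dpci, where the sum overlapped its control. It was 8505 to 20620 CPM at 3 dpci against 15250 to 22960 CPM in sham, and 13990 to 17730 CPM at 14 dpci. In PC it was 4582 to 12430.0 CPM at 7 dpci against 15980.0 to 18990.0 CPM uninjured. Of the neutrophil markers, both mpx ids were near 0, with 1 and 6 reads in all libraries, and the sum over the list was carried by lysozyme ids, nccrp1 and csf3r. That sum lay at 15.7 to 29.4 CPM in uninjured SF and 27.3 to 40.1 CPM in uninjured PC, and at 6 hours it lay at 35.6 to 153 CPM after cryo-injury against 18.3 to 51.8 CPM after sham in SF, which overlapped, and at 242 to 533 CPM against 60.9 to 81.7 CPM in PC, which did not. In SF it was higher later, at 151 to 336.5 CPM at 1 dpci (mean 229.1 CPM, median 236.6 CPM). At 3 dpci it lay at 99.0 to 716.4 CPM, with a higher mean of 364.2 CPM and a lower median of 172.6 CPM. The macrophage sum went from 736 to 1041 CPM (SF) and 641 to 1387 CPM (PC) in uninjured ventricles to 2017 to 2551 CPM and 1434 to 3084 CPM at 3 dpci. In sham at 3 dps it was 953 to 1530 CPM in SF, with no overlap, and 755 to 2489 CPM in PC, which overlapped. The fibroblast sum, mostly collagen genes, went from 388 to 653 CPM (SF) and 482 to 593 CPM (PC) in uninjured ventricles to 2967 to 4922 CPM and 2766 to 5257 CPM at 7 dpci. In sham at 3 dps it was 1460 to 2395 CPM in SF and 887.5 to 1895 CPM in PC, all above the uninjured libraries. The sham means were 1881 and 1323 CPM, beside 1294 and 1302 CPM at 3 dpci. Skeletal muscle markers moved in both directions. The sum of 11 ids went from 6003 to 8543 CPM in uninjured SF to 2657 to 8053 CPM at 7 dpci, and from 5550.0 to 5904 to 1095 to 2164 CPM in PC. In SF at 7 dpci 8 of the 11 were called higher and 2 lower without the factor, and 0 higher and 2 lower with it, and the mean of tnnt3a, for example, went from 0.262 to 160 CPM. In PC at that time 0 were higher and 2 lower in either fit. The sum of 7 liver and pancreas ids at 6 hours was 55.3 to 84.4 CPM after cryo-injury against 5.84 to 27.2 CPM after sham in PC, which did not overlap, and 19.6 to 244 CPM against 7.49 to 22.7 CPM in SF, which did. The sum of 3 erythroid ids was 14010.0 to 47410.0 CPM at 7 dpci in SF against 4956 to 7470.0 CPM uninjured, with no overlap. In PC it was 3165 to 33590 CPM at 7 dpci against 3473 to 9220 CPM uninjured, which overlapped. It also spread widely after sham, at 4608 to 54320 CPM in SF at 3 dps. The part of these cell types in the results below was not tested. In whole ventricles, more cells of a type and more RNA per cell cannot be told apart, and this holds for every result here.

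By the members' values 3 libraries stood apart from their groups. PC 3 dps replicate 5 had a lysosome gene sum of 5291 CPM against 1151 to 1741 CPM in the other 4 libraries, a macrophage sum of 2489 CPM against 754.8 to 1257 CPM, and the highest value of its group in 18 members. PC 14 dpci replicate 2 had a neutrophil sum of 781.3 CPM against a median of 59.63 CPM over its group and was highest in 23 members. Its fibroblast sum was 5326 CPM against 1148 to 2185 CPM in the other libraries, and its macrophage sum 3302 against 1476 to 1974 CPM. Its lysosome sum was 3405 against 1436 to 1854 CPM, and its matrix substrate sum 9539 against 2278 to 3955 CPM. Its cardiomyocyte sum was the lowest, 8717 against 11290 to 17870 CPM. SF 6 hps replicate 1 was highest in 15 members. By markers of other cell types, replicate 3 of PC 3 dps had an erythroid sum of 88100 CPM, against a group median of 4341 CPM, and replicate 3 of SF 3 dpci a liver and pancreas sum of 618.1 CPM, against a median of 52.77 CPM. These latter libraries were left out only together with every other replicate 3, which took the members called between SF and PC at 3 dps from 12 to 6, and those called at 3 dpci against sham from 8 to 10 in SF and from 6 to 9 in PC. Over all genes the same step took these 3 numbers from 1254 to 762, from 854 to 782 and from 355 to 379. Named values that lost their call or moved by more than 1.5 times when PC 3 dps replicate 5, PC 14 dpci replicate 2 or SF 6 hps replicate 1 was left out of the fit with the factor are given with and without it. Without PC 3 dps replicate 5, mmp13b, ctsd, ctsz (ENSAMXG00000031921) and ctsa were newly called higher in SF at 3 dps, at 3.96, 1.39, 1.59 and 1.29 on the log2 scale. Without SF 6 hps replicate 1 timp2a was newly called lower in SF at 6 hps, at -1.01, and without PC 14 dpci replicate 2 mmp14a was newly called higher in SF at 14 dpci, at 1.17, and a ctsl.1 id (ENSAMXG00000001947) lost its call there, at 1.81 (adjusted p = 0.064).

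Of the 84 members, 73 reached 1 CPM in at least 1 library and were tested, 38 had no more than 100 reads in all 96 libraries, and 5 had none. A member that entered the test through a high group had to differ somewhere, so the 73 are not a random draw. The 11 that were not tested were adamts3, adamts10, adamts12, adamts13, mmp20a, mmp20b, mmp30, the MMP19 id ENSAMXG00000007653, 1 ctsl.1 id and 2 ctsz ids. The gene mmp2 was not among the members and was not analysed here. In the fit with the factor 39 members were called in at least 1 comparison, or 53.4% of those tested, against 32.3% of all tested genes. They were 11 mmp, 3 timp, 7 adamts and 18 cathepsin genes. Injury comparisons called 26 members in 52 gene-by-comparison results with the factor and 35 members in 127 results without it, and 48 results were called by both. These were 35.6% of the members with the factor and 47.9% without it, against 14.7% and 28.6% of all tested genes.

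**Figure D1:**
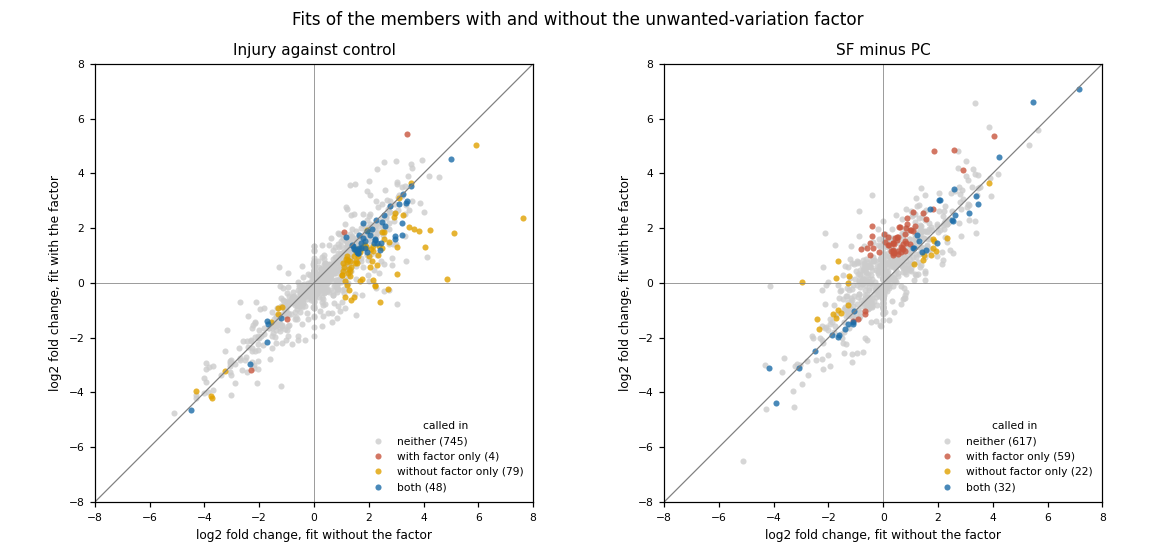
Each point is 1 tested member in 1 comparison, with its log2 fold change without the RUVg factor on the x axis and with it on the y axis, for injury against control (left, 876 points) and SF minus PC (right, 730 points). Colours give the fit that called it: in the injury panel 48 points were called by both, 4 with the factor only and 79 without it only, and in the SF minus PC panel 32, 59 and 22.

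The gelatinase gene mmp9 and an mmp13a id (ENSAMXG00000006427), annotated as collagenase 3-like, rose within hours of cryo-injury in both populations. The gelatinase mmp9 (ENSAMXG00000007722, chromosome 6, 5709454 to 5717872, Mexican tetra 2.0) was near 0 in uninjured ventricles, at 1.31, 0 and 1.57 CPM in SF and 1.67, 0 and 0 CPM in PC. At 6 hpci the SF libraries held 586, 43.6, 79.4, 269.9 and 144 CPM, against 77.3, 7.03, 1.67, 6.33 and 12.8 CPM in sham. The PC libraries held 474, 475, 220.1, 573 and 136 CPM, against 8.36, 7.59, 15.6, 22.6 and 4.71 CPM in sham. Injured and sham libraries did not overlap in PC, whereas in SF the lowest injured library fell below sham replicate 1. The means were 225 ± 219.5 CPM (SD, n = 5) in injured SF and 376 ± 187 CPM (SD, n = 5) in injured PC. In SF the difference from sham was called (log2 fold change 2.99, SE 0.49, adjusted p = 4.96e-05), as it was in PC (log2 fold change 4.51, SE 0.52, adjusted p = 3.38e-10). Without SF 6 hps replicate 1 the SF value rose to 4.42 (adjusted p = 2.09e-07).

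The burst of mmp9 was brief. By 1 dpci its means were 7.88 ± 3.86 CPM (SD, n = 5) in SF and 17.5 ± 11.97 CPM (SD, n = 5) in PC, and it was not called there. At 7 dpci, 12.9, 28.4, 31.8, 10.48 and 7.27 CPM in SF and 10.2, 3.68, 11.9, 25.7 and 10.47 CPM in PC all lay above the uninjured libraries, and the gene was called in the fit without the factor, with log2 values of 4.04 (adjusted p = 0.00231) and 4.25 (adjusted p = 0.00972). With the factor these values were 1.30 (adjusted p = 0.755) and 1.95 (adjusted p = 0.656). The second mmp9 id (ENSAMXG00000037117, chromosome 6, 5695088 to 5705823) lies beside the first and had 6 reads in all. It was seen in SF 6 hpci replicate 4 at 2.65 CPM and in SF 3 dps replicate 2 at 0.552 CPM, and it was not called in any comparison.

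The collagenase 3 gene mmp13a (ENSAMXG00000006427, chromosome 20, 8204880 to 8210191) peaked at 6 hpci as well, and in PC it was also called at 1 and 3 dpci. Its level at 6 hpci was 292, 70.5, 111, 178 and 186 CPM in SF, against 53.9, 32.0, 9.99, 16.7 and 8.31 CPM in sham, and no library overlapped (log2 fold change 2.80, SE 0.52, adjusted p = 0.000449, and 3.43 without SF 6 hps replicate 1). In PC it was 407, 486, 274, 534 and 189 CPM against 50.1, 23.9, 54.4, 18.0 and 52.5 CPM, again with no overlap (log2 fold change 3.25, SE 0.51, adjusted p = 4.3e-06). At 1 dpci PC libraries still held 22.7, 47.7, 83.1, 44.8 and 55.6 CPM, all above the sham values of 11.96, 5.55, 7.64, 16.6 and 10.02 CPM (log2 fold change 2.29, SE 0.59, adjusted p = 0.0183). At 3 dpci they held 16.1, 28.1, 19.99, 41.0 and 53.8 CPM, all above sham at 1.68, 2.03, 6.3, 2.78 and 1.32 CPM (log2 fold change 3.54, SE 0.67, adjusted p = 0.000304). The SF means at those times were 13.4 and 11.6 CPM, and neither was called with the factor, with log2 values of 1.00 (adjusted p = 0.568) and 1.95 (adjusted p = 0.0963), although without the factor 3 dpci was called at 1.93 (adjusted p = 0.0434). The interaction, which asks whether the injury response itself differed between the populations, was not called for this gene at any time.

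The neighbouring mmp13a id (ENSAMXG00000006428, chromosome 20, 8194892 to 8198160) followed at a lower level, with 40.0, 52.3, 10.9, 23.7 and 7.31 CPM in PC at 6 hpci against 3.48, 2.33, 1.87, 3.01 and 4.71 CPM in sham (log2 fold change 2.88, SE 0.73, adjusted p = 0.0109). In SF this id was not called at 6 hpci (1.88, adjusted p = 0.248), and mmp13b was called there in neither population. Both mmp13a ids are annotated as collagenase 3-like and could share reads. Another early gene was mmp25b, a membrane-anchored metalloproteinase whose mammalian counterpart is known from neutrophils. In PC at 6 hpci it reached 60.6, 68.3, 51.5, 115 and 46.5 CPM against 6.96, 7, 8.12, 6.76 and 4.04 CPM in sham, with no overlap (log2 fold change 2.92, SE 0.43, adjusted p = 1.23e-06). In SF its means were 27.9 and 7.78 CPM, which was called only without the factor, at 1.82 (adjusted p = 0.0158) against 1.38 (adjusted p = 0.106) with it. The sums of neutrophil markers given above had higher ranges at the same time, with overlap in SF, and the liver and pancreas sums also moved then, as given above, and their part in these values was not tested. Among the other metalloproteinases, MMP23B fell in PC at 6 hpci, from a sham mean of 18.0 to 7.86 CPM (log2 fold change -1.27, SE 0.31, adjusted p = 0.00618).

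In all, at 6 hpci 3 of 73 members were called in SF (4.11% against 0.65% of all genes tested) and 6 in PC (8.22% against 2.17%). Without the factor the counts were 4 in SF (background 1.47%) and 6 in PC (background 3.3%). The genes mmp9 and mmp13a in both populations and mmp25b in PC kept their calls at 6 hpci under each of 12 other settings of the fit.

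**Figure D2:**
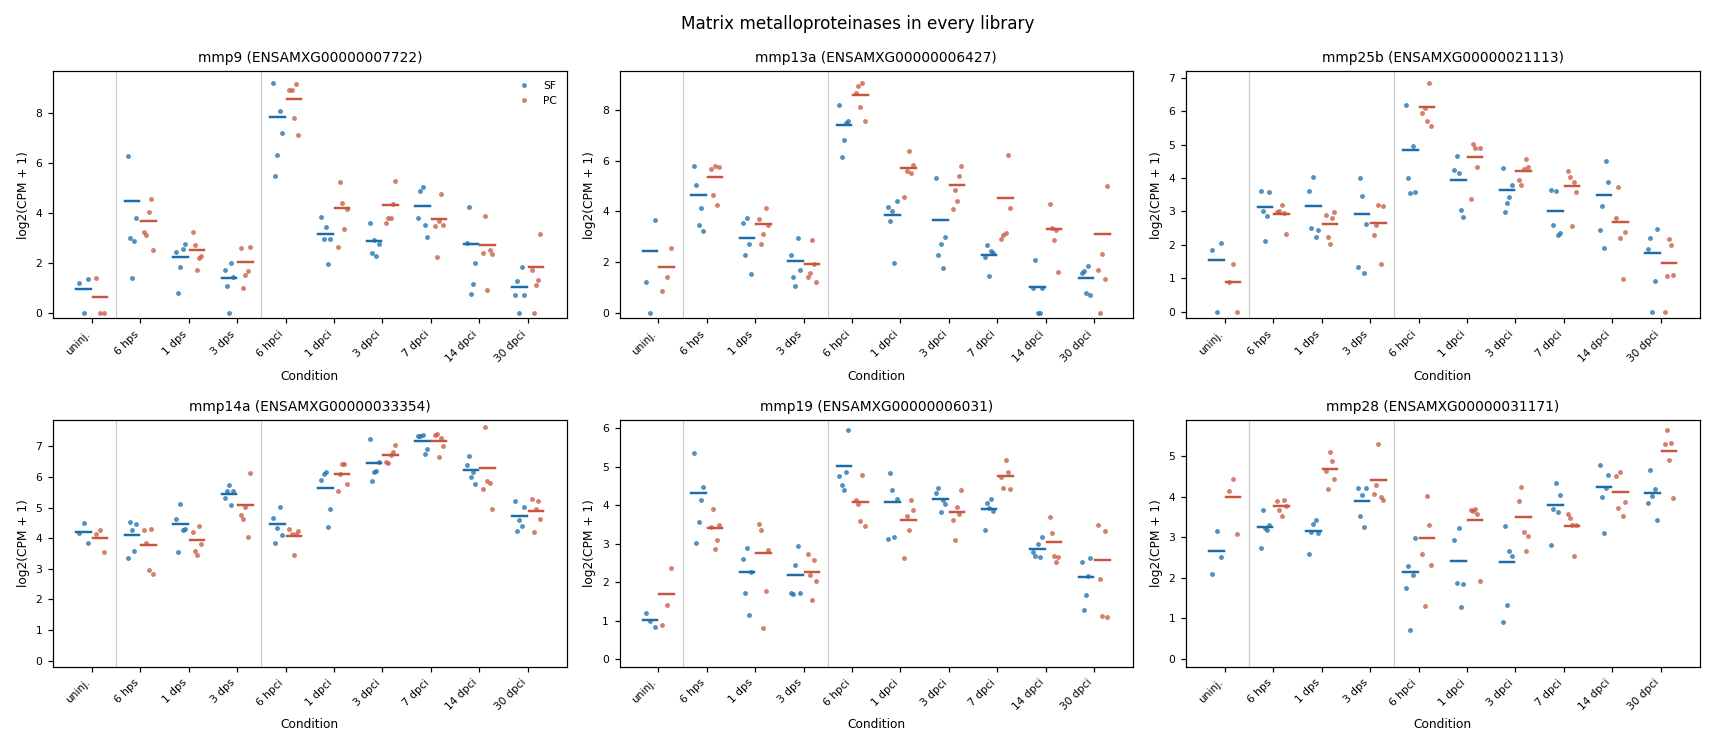
Levels of mmp9 (ENSAMXG00000007722), mmp13a (ENSAMXG00000006427), mmp25b, mmp14a, mmp19 and mmp28 as log2(CPM + 1) are plotted by condition for SF and PC, with a point for each library and a bar at each group mean. The mean of mmp9 is highest at 6 hpci (225 CPM in SF and 376 CPM in PC), and that of mmp14a at 7 dpci (142 and 143 CPM).

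The membrane-type metalloproteinase mmp14a followed a slower course, with group means that were highest at 7 dpci in both populations. From 16.7, 18.3 and 10.7 CPM in uninjured PC it reached 166, 169, 99.4, 155 and 127 CPM at 7 dpci, with no overlap (log2 fold change 1.74, SE 0.42, adjusted p = 0.00725, and 3.23 without the factor). It was also called in PC at 1 dpci, where 67.3 CPM stood against 14.4 CPM in sham (log2 1.47, adjusted p = 0.00155, and 2.21 without the factor), and at 3 dpci, where 105 CPM stood against 33.2 CPM (log2 1.26, adjusted p = 0.00144). In SF the libraries at 7 dpci, 160.0, 160.1, 163, 108 and 120.5 CPM, all lay above the uninjured 17.0, 21.6 and 13.4 CPM. That rise was called without the factor at 3.04 (adjusted p = 7.53e-09), whereas with the factor it was 1.31 (adjusted p = 0.0878). In SF it was called without the factor at 1, 3 and 14 dpci as well, at 1.23, 1.03 and 2.11, and in PC at 14 dpci at 2.38 (adjusted p = 5.24e-05). After sham surgery at 3 dps the means were 43.0 CPM in SF and 33.2 CPM in PC. Against uninjured ventricles SF was called without the factor (1.32, adjusted p = 0.0311) and not with it (0.49, adjusted p = 0.577), and PC was called by neither fit.

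The second collagenase 3 gene, mmp13b, was near 0 in uninjured ventricles. Its SF libraries at 7 dpci held 11.5, 98.3, 207, 11.8 and 4.67 CPM, where uninjured SF held 0, 0 and 0.788 CPM, and the PC libraries held 22.9, 25.2, 15.9, 9.55 and 16.5 CPM, where uninjured PC held 0.836, 0 and 0.826 CPM. Injured and uninjured libraries did not overlap in either population. The fit without the factor called both, at 7.63 (adjusted p = 3.07e-05) and 4.87 (adjusted p = 0.00809), and called PC at 14 dpci at 5.10 (adjusted p = 0.0227). The fit with the factor called none of the 3. At 14 dpci the PC libraries held 3.39, 62.5, 7.27, 28.7 and 0 CPM, with the highest value in replicate 2, the library that stood apart in several marker sums given above. The fit without the factor was not repeated without this library.

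The gene mmp19, a secreted metalloproteinase, rose at 3 dpci in SF, to 18.9, 20.8, 13.2, 16.6 and 15.5 CPM against 2.31, 2.21, 4.47, 6.66 and 2.27 CPM in sham, with no overlap (log2 fold change 1.56, SE 0.42, adjusted p = 0.00799). Without the factor it was also called at 1, 7 and 14 dpci in SF (log2 2.07, 3.64 and 2.50) and at 3 and 7 dpci in PC (log2 1.77 and 3.49).

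With the factor, calls of lower metalloproteinase genes came within 3 days of injury. Without it mmp28 was also called lower at 1 dpci in PC (-1.33, adjusted p = 0.0121) and mmp25a at 7 dpci in PC, where all 5 libraries were at 0 and the uninjured mean was 1.38 CPM. The gene mmp25a had 12 reads in all libraries. Its sham mean in PC at 3 dps was also 0 CPM, which overlapped uninjured PC and was called in neither fit. The gene mmp11b, a stromelysin that is activated inside the cell, fell at 1 dpci in SF to 3.48, 4.58, 6.95, 2.16 and 1.03 CPM, against 19.4, 1.54, 8.36, 17.8 and 14.7 CPM in sham, with ranges that overlapped (log2 fold change -2.15, SE 0.52, adjusted p = 0.00915). It fell again at 3 dpci (log2 -1.32, adjusted p = 0.0328, -0.996 and not called without the factor). The sham libraries at 3 dps were all above uninjured SF, with means of 27.9 and 9.77 CPM, which was not called (1.11, adjusted p = 0.297 with the factor and 1.50 (adjusted p = 0.0589) without it). At 7 and 14 dpci its SF means of 44.6 and 37.1 CPM were above the uninjured 9.77 CPM in the fit without the factor, at 2.17 (adjusted p = 0.000633) and 1.92 (adjusted p = 0.0057). In PC at 3 dpci mmp11b was not called with all libraries kept. When sham replicate 5 was left out of the fit with the factor, it was called lower there, at -1.45 (adjusted p = 0.0274). The genes mmp11b and mmp25a overlap other genes on the same strand, so their reads are uncertain.

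The gene mmp28, known as epilysin, fell at 3 dpci in SF from 14.0 CPM in sham to 4.24 CPM (log2 -1.51, adjusted p = 0.0171). Those sham libraries were themselves all above uninjured SF, which was not called (1.67, adjusted p = 0.0776, with the factor and 1.44, adjusted p = 0.0891, without it), and the later times below have uninjured ventricles as their control. The gene was higher against uninjured SF, which held 3.27, 7.86 and 4.73 CPM, with 26.4, 15.0, 7.63, 17.5 and 22.3 CPM at 14 dpci (log2 fold change 2.17, SE 0.61, adjusted p = 0.0288) and 13.5, 24.4, 15.2, 17.4 and 9.76 CPM at 30 dpci (log2 fold change 1.74, SE 0.53, adjusted p = 0.0351). Only the later time was free of overlap. MMP23B was called at 14 dpci in SF, with a mean of 41.7 against 13.1 CPM (log2 1.47, adjusted p = 0.0262). The symbol MMP10 belongs to a gene that the annotation describes as hemopexin-like, so no protease role is given to it. It fell at 1 dpci in PC, to 0, 1.64, 1.25, 2.61 and 0.935 CPM against 2.49, 3.08, 2.29, 2.97 and 23.1 CPM in sham (log2 fold change -3.18, SE 0.86, adjusted p = 0.027), where sham replicate 5 alone stood high and the fit without the factor gave -2.30 (adjusted p = 0.0584).

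Before injury the TIMP genes were more abundant than the mmp genes. In uninjured ventricles timp2a held 191, 157 and 236 CPM in SF and 212, 166 and 229 CPM in PC, against a sum over all 26 mmp genes of 57.6 ± 8.82 CPM in SF and 76.8 ± 7.44 CPM in PC (SD, n = 3 each). At 6 hpci that mmp sum was 512 ± 330.5 CPM in SF and 907 ± 365 CPM in PC, while the sum of the 4 timp genes was 511 ± 136 CPM and 748 ± 134 CPM (SD, n = 5 each). The level of timp2a in SF went down to 43.8 CPM at 1 dpci from 95.9 CPM in sham, which was called without the factor (-1.15, adjusted p = 4.04e-05) and was under a 2-fold change with it (-0.88, adjusted p = 0.0128).

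The gene timp2b, its close relative, was high early after surgery of either kind, a difference from uninjured ventricles that was not tested. Uninjured libraries held 38.5, 45.2 and 73.2 CPM (SF) and 37.6, 59.0 and 52.9 CPM (PC). At 6 hours, sham means were 314 ± 96.4 CPM (SD, n = 5) in SF and 355 ± 52.9 CPM (SD, n = 5) in PC, beside cryo-injury means of 390.5 ± 126 CPM (SD, n = 5) and 593 ± 124 CPM (SD, n = 5), and injury against sham was not called. At 3 dpci the calls began. SF libraries held 421, 205, 299, 123 and 187 CPM, all above sham at 76.2, 56.9, 71.0, 53.3 and 68.8 CPM (log2 fold change 1.89, SE 0.28, adjusted p = 4.75e-07), and PC means were 212 and 80.8 CPM, again with no overlap (log2 1.37, adjusted p = 0.000413). At 7 dpci SF libraries held 122, 152, 140.5, 129 and 162 CPM (log2 fold change 1.34, SE 0.41, adjusted p = 0.0457). Those of PC held 344, 266, 393, 189.8 and 286 CPM (log2 fold change 2.49, SE 0.39, adjusted p = 7.77e-06). By 30 dpci the means were 56.3 CPM in SF and 49.9 CPM in PC, and neither was called.

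TIMP3, which binds to the matrix, rose in SF at 6 hpci to 9.33, 17.9, 20.6, 17.5 and 32.5 CPM, with sham at 8.51, 0.781, 1.67, 2.3 and 8.31 CPM and no overlap (log2 fold change 1.98, SE 0.45, adjusted p = 0.00998). It rose again at 3 dpci, from a sham mean of 3.66 to 14.1 CPM (log2 1.53, adjusted p = 0.0325). Without the factor TIMP3 was also called at 1 and 7 dpci in SF, at 1.55 and 2.55, and at 7 dpci in PC, at 1.49 (adjusted p = 0.0125). In PC the gene started higher, at 19.2, 7.48 and 33.9 CPM before injury against 3.27, 0.982 and 7.09 CPM in SF. The fourth gene, timp4.3, had 35 reads in all 96 libraries and group means of at most 1.11 CPM, and no comparison called it. TIMP3 and timp4.3 overlap genes on the other strand, as do mmp28, MMP23B, ctss2.1, the adamts2 id ENSAMXG00000007476 and the ctsl.1 ids ENSAMXG00000010192 and ENSAMXG00000034019.

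**Figure D3:**
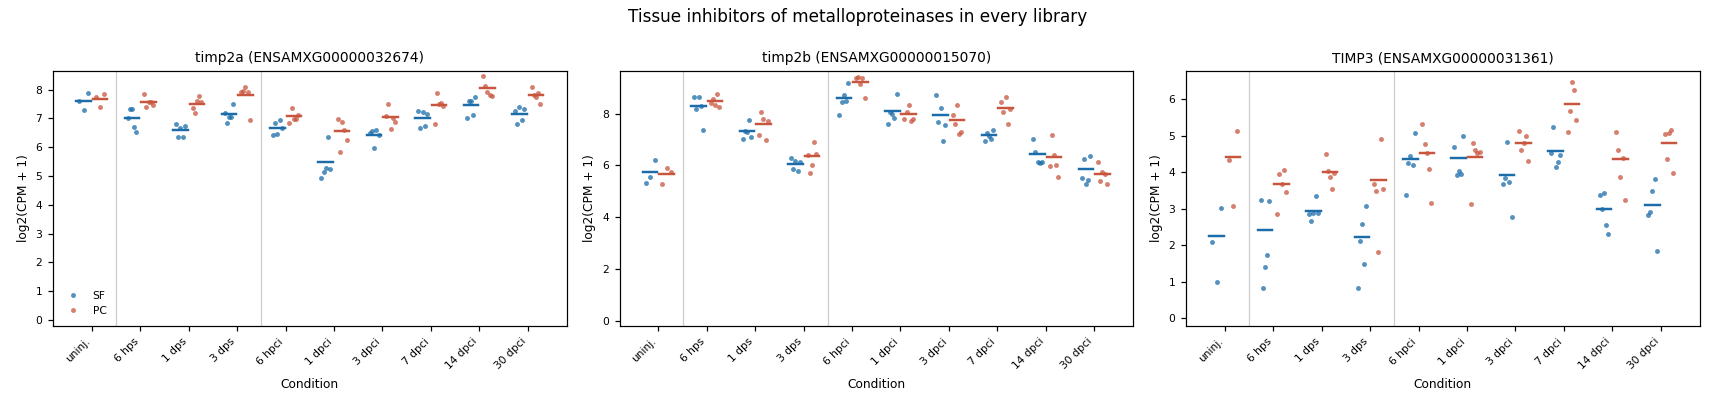
Levels of timp2a, timp2b and TIMP3 as log2(CPM + 1) are plotted by condition for SF and PC, with a point for each library and a bar at each group mean. At 6 hours timp2b has means of 390.5 CPM (SF) and 593 CPM (PC) after cryo-injury, beside 314 and 355 CPM after sham. Uninjured TIMP3 is lower in SF (3.78 CPM) than in PC (20.2 CPM).

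After injury 6 of 17 tested ADAMTS genes were called with the factor (35.3%, against 14.7% of all genes in the same comparisons) and 5 without it (29.4% against 28.6%). Their sum over 21 ids was 148 ± 17.6 CPM in uninjured SF and 63.7 ± 18.5 CPM in uninjured PC (SD, n = 3 each). In SF adamts8a, whose mammalian counterpart cleaves aggrecan, was lower at 1 dpci than in sham, with means of 10.7 and 35.4 CPM and no overlap (log2 -1.39, adjusted p = 0.0252). At 14 dpci it was higher than in uninjured SF, with 13.2, 42.4, 24.3, 53.0 and 23.8 CPM against 13.1, 12.8 and 15.8 CPM (log2 fold change 1.66, SE 0.47, adjusted p = 0.033). These times have different controls. The sham mean at 1 dps was itself above each uninjured library, which was not tested, and above the 14 dpci mean of 31.35 CPM. In SF at 3 dpci adamts15b (ENSAMXG00000037225, chromosome 2, 18635882 to 18653557, annotated as ADAMTS8-like) fell to 2.2, 1.3, 0.507, 0 and 0.533 CPM, all below the sham values of 3.85, 4.97, 6.15, 3.63 and 6.25 CPM (log2 fold change -2.97, SE 0.69, adjusted p = 0.00175). The neighbouring adamts15b id (ENSAMXG00000029165) was not called in any comparison, with group means of up to 18.3 CPM.

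Late after injury, ADAMTS7, a protease of cartilage oligomeric matrix protein, rose at 14 dpci in SF to 42.6, 64.9, 47.2, 85.2 and 67.0 CPM, all above uninjured SF at 18.3, 36.3 and 33.1 CPM (log2 fold change 1.86, SE 0.53, adjusted p = 0.0343). In the fit without the factor this was 1.09 (adjusted p = 0.0908). ADAMTS2, a procollagen N-proteinase, was called at 7 dpci in SF at a low level, 5.98, 0.915, 2.15, 2.18 and 5.71 CPM with uninjured SF at 0.653, 0 and 0 CPM (log2 fold change 5.45, SE 1.599, adjusted p = 0.0363), and missed the threshold without the factor at 3.39 (adjusted p = 0.0634). This call was kept under 2 of those 12 settings and lost whenever 1 replicate number was left out. After sham at 3 dps its means were 2.49 against 0.218 CPM uninjured in SF, with overlap. In PC they were 2.37 against 0.279 CPM, with no overlap. Neither was called in either fit (SF 3.99, adjusted p = 0.0925, with the factor). The second id of this enzyme, adamts2 (ENSAMXG00000007476), had group means of up to 19.1 CPM and was not called.

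The gene adamts15a was the only member whose injury response was called as different between the populations, at 7 dpci. Uninjured PC libraries held 8.36, 3.32 and 11.6 CPM and those at 7 dpci 65.8, 109, 57.6, 74.0 and 57.3 CPM, with no overlap (log2 fold change 2.17, SE 0.57, adjusted p = 0.0163, and 3.23, adjusted p = 2.92e-07 without the factor). Uninjured SF libraries already held 35.3, 26.5 and 6.3 CPM and those at 7 dpci 40.9, 54.0, 43.8, 29.7 and 34.3 CPM, which was not called (log2 -0.33, adjusted p = 0.917). The interaction was -2.51 (SE 0.61, adjusted p = 0.0187) with the factor and -2.40 (adjusted p = 0.0547) without it, so it did not hold in both fits. Its call was kept under 8 of those 12 settings and was also lost without replicate 1, 2 or 3. Sham PC libraries at 3 dps were themselves all above uninjured PC, with means of 18.4 and 7.75 CPM. This was called in neither fit (0.83, adjusted p = 0.515, with the factor and 1.24, adjusted p = 0.19, without it). At 14 dpci PC was called without the factor only, at 2.49 (adjusted p = 0.000671).

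The gene adamts18 was highest in uninjured SF, which held 44 of its reads. Uninjured SF libraries held 7.84, 11.8 and 15.8 CPM, uninjured PC 0, 1.66 and 0 CPM, and SF at 30 dpci 0, 0, 0.724, 1.74 and 0 CPM. Against uninjured SF it was called as lower at 30 dpci (log2 fold change -4.63, SE 1.08, adjusted p = 0.0034) and, without the factor, at 7 and 14 dpci (log2 -3.72 and -3.77). It was also lower after sham at 3 dps, with a mean of 0.499 CPM (log2 -4.65, adjusted p = 0.0116). The gene had 132 reads in all libraries.

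**Figure D4:**
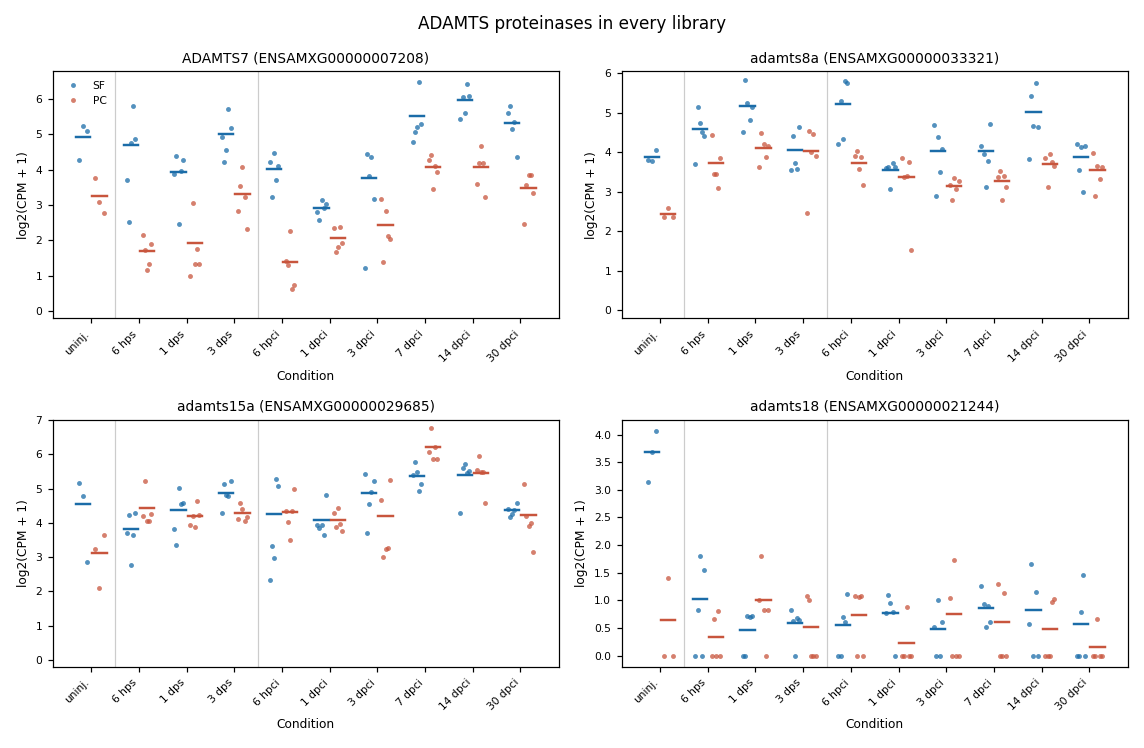
Levels of ADAMTS7, adamts8a, adamts15a and adamts18 as log2(CPM + 1) are plotted by condition for SF and PC, with a point for each library and a bar at each group mean. At 6 hps ADAMTS7 has a mean of 25.1 CPM in SF and 2.25 CPM in PC, and adamts18 is seen in uninjured SF at 7.84 to 15.8 CPM.

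Cathepsins had the highest family sum by group mean, except at 6 hps in PC (inhibitors, 557.7 against 554.0 CPM) and at 6 hpci in PC (metalloproteinases, 907.2 against 755.6 CPM), and most of their calls began at 1 dpci. Summed over all 33 ids they went from 1210.0 ± 549.7 CPM in uninjured SF and 779 ± 109 CPM in uninjured PC (SD, n = 3 each) to 2945 ± 455 CPM and 2312 ± 197 CPM at 3 dpci (SD, n = 5 each). Sham ventricles at 3 dps held 2510.0 ± 1319 CPM in SF and 1234 ± 1046 CPM in PC (SD, n = 5 each), and their ranges overlapped those of injured ventricles in both populations. Of these SF sums, the ctsl.1 id ENSAMXG00000010160 alone gave means of 702 CPM uninjured, 1600 CPM at 3 dps and 535 CPM at 3 dpci. At 6 hpci the only cathepsin called was ctss2.1, a cathepsin S gene, in PC, at 62.7 against 20.9 CPM (log2 1.096, adjusted p = 0.0411). Cathepsin S and its neighbour cathepsin K are both known from macrophages, and cathepsin K, the collagen-degrading enzyme of osteoclasts, is also made by fibroblasts.

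The gene ctsk rose in both populations at 1, 3 and 7 dpci, in both fits. At 1 dpci its means were 327 ± 74.3 CPM (SD, n = 5) in SF against 109 ± 29.6 CPM (SD, n = 5) in sham (log2 1.08, adjusted p = 0.00349), and 252 ± 51.2 CPM (SD, n = 5) in PC against 84.4 ± 23.0 CPM (SD, n = 5) (log2 1.15, adjusted p = 0.000837). At 3 dpci they were 739 ± 105 CPM (SD, n = 5) against 241 ± 12.5 CPM (SD, n = 5) in SF (log2 1.22, adjusted p = 4.24e-05), and 377 ± 58.5 CPM (SD, n = 5) against 136 ± 64.9 CPM (SD, n = 5) in PC (log2 1.24, adjusted p = 7.7e-05). At 7 dpci SF libraries held 539.5, 838, 1333, 307 and 460.1 CPM, all above the 140.4, 134 and 103.2 CPM of uninjured SF (log2 fold change 1.46, SE 0.33, adjusted p = 0.00349, and 2.46 without the factor). In PC at that time 298 CPM stood against 77.0 CPM (log2 1.12, adjusted p = 0.0238, and 1.95 without it). At 14 dpci it was called without the factor, at 1.04 in SF and 1.11 in PC, and at 30 dpci in neither fit. Sham libraries of ctsk at 3 dps were themselves all above uninjured ones, with means of 241 against 126 CPM in SF and 136 against 77.0 CPM in PC. This was called in neither fit. Without the factor SF was under a 2-fold change, at 0.93 (adjusted p = 0.0244).

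The gene ctsla, a cathepsin L, rose early in both populations. In PC at 1 dpci it held 41.8, 98.7, 58.2, 49.5 and 52.4 CPM, all above sham at 10.97, 11.7, 9.17, 6.54 and 15.4 CPM (log2 fold change 2.22, SE 0.36, adjusted p = 3.36e-05), a call kept under each of those 12 settings. In SF it held 34.5, 77.5, 96.4, 47.6 and 44.7 CPM against 20.1, 8.49, 16.1, 17.8 and 9.58 CPM (log2 fold change 1.75, SE 0.36, adjusted p = 0.00191). At 3 dpci PC held 34.3, 58.8, 81.5, 57.7 and 39.5 CPM against 15.7, 13.2, 16.4, 11.7 and 20.7 CPM (log2 fold change 1.65, SE 0.33, adjusted p = 0.000547), and SF had a mean of 77.2 against 27.3 CPM (log2 1.25, adjusted p = 0.00755). None of these 4 comparisons had overlapping libraries.

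The cathepsin S gene ctss2.1 rose at 1 dpci in SF, from a sham mean of 15.7 to 122 CPM (log2 1.73, adjusted p = 0.00152, and 2.95 without the factor), and in PC, from 34.7 to 186 CPM (log2 1.20, adjusted p = 0.0291, and 2.40 without it). At 3 dpci PC libraries held 285, 196, 212, 216 and 196 CPM, all above sham at 57.3, 19.8, 18.3, 44.99 and 91.9 CPM (log2 fold change 1.61, SE 0.31, adjusted p = 0.00035). The SF value at 3 dpci was just under the 2-fold limit with the factor (0.97, adjusted p = 0.0429) and above it without the factor (2.02, adjusted p = 7.2e-05). Cathepsin H (ctsh), an aminopeptidase of the lysosome, rose at 1 dpci in SF to 16.0, 9.93, 10.2, 20.2 and 5.13 CPM, all above sham at 0.627, 1.54, 2.57, 1.84 and 3.19 CPM (log2 fold change 2.095, SE 0.44, adjusted p = 0.00215). The gene ctsh overlaps other genes on both strands, so its reads are uncertain.

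With the factor 4 cathepsins were called higher in SF at 1 dpci and 7 in PC, and without it 8 and 9. The shares of all genes called at that time are given below. With the factor a further 4 lysosomal genes rose in PC at 1 dpci, all with libraries that did not overlap sham. Cathepsin B (ctsba) went from 81.3 to 298 CPM (log2 1.28, adjusted p = 0.000172), and the aspartic protease cathepsin D (ctsd) from 56.2 to 279 CPM (log2 1.47, adjusted p = 0.0119, and 2.30 without the factor). The serine carboxypeptidase cathepsin A (ctsa) went from 79.4 to 262 CPM (log2 1.26, adjusted p = 0.000831), and cathepsin Z (ctsz, ENSAMXG00000031921) from 8.72 to 68.6 CPM (log2 1.62, adjusted p = 0.0307, and 2.96 without the factor). The dipeptidyl peptidase gene cathepsin C (ctsc) was at 83.6 and 249 CPM and was called without the factor (1.57, adjusted p = 6.02e-05) but not with it (0.72, adjusted p = 0.098). In the fit with the factor, the calls of these genes at 3 dpci in PC turned on sham replicate 5. Without that library ctsba, ctsd, ctsz, ctsc and ctsa were called at 1.53, 2.04, 2.34, 1.25 and 1.11 with the factor. Without it mmp11b was also called, as lower, at -1.45, and the count of called members went from 6 to 12. This library held 1031 CPM of ctsd, against 39.67 to 81.39 CPM in the other 4. With it kept, 7 cathepsins were called higher in PC at 3 dpci without the factor, against 3 with the factor. In SF at 3 dpci 9 cathepsins were called higher and 2 lower without the factor, against 2 higher with it. The shares of all genes called at 3 dpci are given below.

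At 7 and 14 dpci most cathepsin calls were made without the factor only. At 7 dpci the fit without it called ctsba, ctsd, ctsc, ctsa, ctsh, ctsla, ctss2.1 and both measured ctsz ids in SF, at 1.06 to 3.54, and ctsd, ctsc, ctss2.1 and ctsz in PC, at 1.12 to 2.72, whereas the fit with the factor called ctsk alone in each population. For example, ctsc libraries in SF held 126, 183, 108, 155 and 141 CPM, all above the 37.9, 71.7 and 57.5 CPM of uninjured SF, with 1.37 (adjusted p = 0.00288) without the factor and -0.63 (adjusted p = 0.424) with it. Sham SF libraries at 3 dps were all above uninjured SF for ctsd (means of 106.5 and 49.3 CPM), ctsa (229 and 130 CPM) and ctsz ENSAMXG00000006750 (1.92 and 0.218 CPM), called in neither fit. For the other genes named here sham and uninjured SF libraries overlapped. The lysosome list, chosen by symbol, was counted in both fits. Of its 49 ids tested at 7 dpci, 17 in SF and 18 in PC were called higher without the factor (background 12.7% and 11.1% of all genes in either direction), and 1 and 0 with it.

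**Figure D5:**
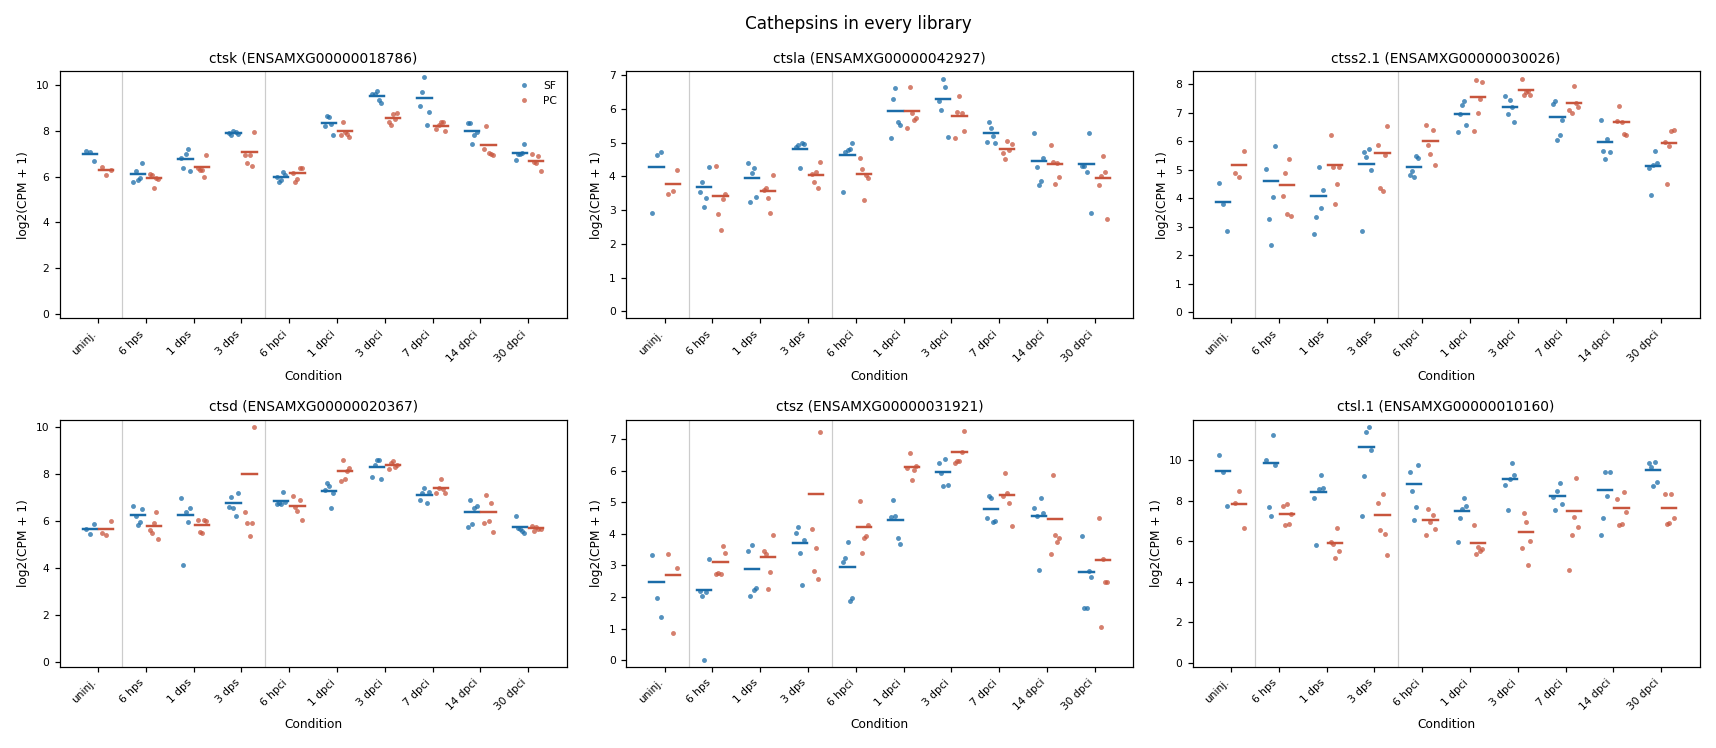
Levels of ctsk, ctsla (ENSAMXG00000042927), ctss2.1, ctsd, ctsz (ENSAMXG00000031921) and ctsl.1 (ENSAMXG00000010160) as log2(CPM + 1) are plotted by condition for SF and PC, with a point for each library and a bar at each group mean. At 3 dpci ctsk averages 739 CPM in SF against 377 CPM in PC, and the PC 3 dps library with 1031 CPM of ctsd stands apart from its group.

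Counted over the 73 tested members and with the factor, most calls fell at 1 and 3 dpci. At 1 dpci, 4 members were higher and 2 lower in SF (8.22% of members, 1.17% of all genes), and 9 higher and 1 lower in PC (13.7%, 1.42%). Without the factor 15 were called in SF (background 4.96%) and 13 in PC (background 4.15%). At 3 dpci, 5 were higher and 3 lower in SF (11%, 4.55%), and 6 higher in PC (8.22%, 1.89%), against 21 (background 7.37%) and 13 (background 3.33%) without the factor. At 7 dpci, 3 were higher in SF (4.11%, 3.03%) and 4 in PC (5.48%, 2.42%), against 19 (background 12.7%) and 15 (background 11.1%).

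At 14 dpci 4 members were higher in SF (5.48%, 2.47%) and none was called in PC (background 0.432%), where edgeR gave 9 members an unadjusted p under 0.05 and DESeq2 called 2. Without the factor 15 were called in SF (background 7.63%) and 4 in PC (background 1.79%). At 30 dpci 1 was higher and 1 lower in SF (2.74%, 3.39%, near the background) and 2 were called without the factor (background 3.52%). In PC none was called at 30 dpci with the factor (background 0.474%) or without it (background 0.538%), with 4 members at an unadjusted edgeR p under 0.05 and 0 DESeq2 calls. Mean library totals in PC were the lowest of the 20 groups at these times, 1204748 counts at 14 dpci and 1061513 counts at 30 dpci. Those of SF were 1862101 and 1678088 counts. The part of depth in these numbers of calls was not tested.

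Sham surgery itself was followed by few calls at day 3. By an unadjusted edgeR p under 0.05 there were 11 members in SF and 9 in PC with the factor, and 24 and 15 without it. In SF 2 members were lower at 3 dps than in uninjured ventricles, adamts18 and a ctsl.1 id (ENSAMXG00000034019), or 2.74% of members near the 2.38% of all genes. The ctsl.1 value of -6.24 turned to 1.20 without replicate 3 and to 2.29 when only the libraries compared were fitted. In PC 1 member was higher (1.37%, with 1.12% of all genes), adamts8a, from 4.43 to 15.4 CPM (log2 1.99, adjusted p = 0.0186). Without the factor 4 members were called in SF (background 4.16%) and 3 in PC (background 2.13%), with adamts1 (lower) and mmp14a (higher) added in SF, and ctsd and ctsz (both higher) in PC. The ranges of sham and uninjured PC libraries overlapped for both of these genes, and the ctsd mean of 254 CPM, against 49.3 CPM uninjured, held the 1031 CPM of replicate 5. The fit without the factor was not repeated without that library.

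The other genes of the same pathways were read from lists fixed by symbol, and counts are given with the factor, followed in brackets by those without it. The shares of all genes called at each time are given above. Of 13 tested ids of the plasminogen system, 2 (2) rose in SF and 2 (2) in PC at 6 hpci and 3 (3) in PC at 1 dpci, and none fell after injury at any time in either fit. Of 23 tested ids of other metalloproteases, 1 (1) rose in SF and 3 (4) in PC at 6 hpci, where adam8a, known from leukocytes, had means of 67.9 CPM after injury and 16.2 CPM in sham in SF, and of 145.9 and 11.6 CPM in PC. Of 13 tested ids of other protease inhibitors, 3 (3) rose and 1 (0) fell in SF at 7 dpci, and 1 (2) rose in PC. Of 41 tested ids of matrix substrates, such as collagens, 7 (3) fell in SF at 3 dpci, and at 7 dpci 12 (16) rose in SF and 11 (17) in PC.

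SF and PC ventricles were then compared within each condition. With the factor 91 gene-by-condition results were called and without it 54, of which 32 were shared, over 18 members, and these 32 are described first. The 91 were 12.5% of the members' results, against 6.74% over all genes. The 54 were 7.4%, near the 6.22% over all genes. In uninjured ventricles 4 members were called with the factor (5.78% of all genes) and 3 without it (5.4%), with adamts18, whose values are given above, shared (log2 fold change 4.59, SE 1.51, adjusted p = 0.0486). The numbers with and without the factor follow, each with the share of all genes called in brackets. They were 9 (6.36%) and 4 (5.61%) at 6 hps, 11 (7.39%) and 6 (6.96%) at 1 dps, and 12 (6.68%) and 7 (6.9%) at 3 dps. After cryo-injury there were 7 (6.92%) and 7 (6.72%) members called at 6 hpci. By 1 dpci the numbers were 7 (7.92%) and 4 (6.12%), and by 3 dpci 9 (6.44%) and 5 (5.92%). The week after injury (7 dpci) had 12 (5.38%) and 8 (5.75%), 14 dpci had 12 (7.88%) and 6 (6.53%), and 30 dpci had 8 (6.68%) and 4 (6.27%). As shares of the 73 members, the counts without the factor ran from 4.11% to 11%, where those of all genes ran from 5.4% to 6.96%. With the factor they ran from 5.48% to 16.4%, where those of all genes ran from 5.38% to 7.92%.

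ADAMTS7 was higher in SF. At 6 hps SF libraries held 12.1, 4.69, 25.8, 54.6 and 28.1 CPM and PC libraries 3.48, 2.33, 1.25, 1.5 and 2.69 CPM (log2 fold change 2.88, SE 0.55, adjusted p = 8.65e-05), the 1 population call kept under each of those 12 settings. At 6 hpci they held 17.5, 8.39, 21.2, 12.2 and 16.2 CPM in SF and 1.67, 1.45, 3.83, 0.552 and 0.664 CPM in PC (log2 fold change 2.54, SE 0.58, adjusted p = 0.00133), and at 14 dpci means of 61.4 ± 17.1 CPM (SD, n = 5) and 15.7 ± 6.3 CPM (SD, n = 5) (log2 1.47, adjusted p = 0.0125). No library overlapped at these 3 times. Without the factor it was higher in SF in 9 of 10 conditions, with 1 dpci as the exception.

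The most abundant member, a cathepsin L1-like ctsl.1 gene (ENSAMXG00000010160, chromosome 9, 10283497 to 10292359), was higher in SF but spread widely among SF fish. At 3 dps SF libraries held 149, 597, 2647, 3179 and 1426 CPM and PC libraries 238, 92.2, 316, 81.6 and 38.2 CPM (log2 fold change 3.19, SE 0.67, adjusted p = 0.000366). At 1 dps they held 282, 54.0, 382, 613 and 387 CPM in SF and 60.3, 56.8, 34.4, 98.6 and 44.7 CPM in PC (log2 fold change 2.26, SE 0.73, adjusted p = 0.0328). At 3 dpci they held 438, 187, 525, 923 and 602 CPM in SF and 49.9, 168, 123, 27.5 and 62.0 CPM in PC, the 1 time of these with no overlap (log2 fold change 2.47, SE 0.64, adjusted p = 0.00563). It was called at 6 hps as well (log2 2.29, adjusted p = 0.0152), and these 4 calls were shared by both fits. This gene lies in a run of 5 ctsl.1 ids on chromosome 9, between 10283497 and 10421562, and 9 more lie on 1 unplaced scaffold, so reads could be split between copies, whose sequences were not compared.

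Other ctsl.1 ids were called from few high libraries. ENSAMXG00000010192, in the same run, was at 0, 2.21, 0, 49.0 and 0.568 CPM in SF at 3 dps and at 0 in all 5 PC libraries (log2 fold change 7.09, SE 1.74, adjusted p = 0.00364), where SF replicate 4 carried most of the signal and the mean was at least 6.41-fold higher than the level that 3 counts in each PC library would give. ENSAMXG00000034019, on the scaffold, held 0, 38.4, 171, 0 and 9.87 CPM in SF at 7 dpci and 0, 1.41, 0.994, 1.19 and 1.1 CPM in PC (log2 fold change 6.61, SE 1.34, adjusted p = 0.000262). At 1 dpci it held 0, 1.91, 0.927, 22.4 and 0 CPM in SF and 0.516, 0, 0, 0 and 0.468 CPM in PC (log2 fold change 5.38, SE 1.77, adjusted p = 0.0343), and at 14 dpci 2.94, 2.15, 6.24, 27.3 and 15.9 CPM in SF and 0, 5.12, 0, 0 and 0 CPM in PC (log2 fold change 4.11, SE 1.40, adjusted p = 0.0424), both called with the factor only. Without PC replicate 2, the 1 PC library above 0, the value at 14 dpci was 7.71, a fit against a group at 0. At 1 and 7 dpci some SF libraries were at 0.

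Shared by both fits were also higher SF levels of adamts15b, adamts8a, MMP23B, ctsf and ctsk. The adamts15b id ENSAMXG00000037225 held 14.6, 15.7, 8.13, 9.01 and 7.54 CPM in SF and 5, 3.63, 1.09, 1.1 and 1.99 CPM in PC at 6 hpci, with no overlap (log2 fold change 3.03, SE 0.66, adjusted p = 0.00061), and 11.2, 6.49, 13.0, 7.21 and 8.73 CPM in SF and 2.58, 0.548, 2.49, 6.78 and 1.87 CPM in PC at 1 dpci (log2 fold change 2.696, SE 0.65, adjusted p = 0.0019, and 1.69 without the factor). At 6 hps, 44.0, 1.56, 5.83, 4.6 and 5.12 CPM stood against 1.39, 1.17, 2.5, 3.01 and 2.02 CPM (log2 fold change 3.45, SE 0.67, adjusted p = 0.000113), and without SF replicate 1 this was 1.75 (adjusted p = 0.138) and no longer called. The gene adamts8a was higher in SF at 6 hpci and 14 dpci (log2 1.20 and 1.13), the latter lost without PC 14 dpci replicate 2, at 1.04 (adjusted p = 0.0711), and MMP23B at 6 hpci (log2 1.26). Cathepsin F (ctsf) was higher in SF at 1 dps and 3 dpci (log2 1.53 and 1.27), with means of 20.7 against 9.48 CPM at the latter. The gene ctsk was higher at 7 dpci, 696 against 298 CPM (log2 1.75, adjusted p = 1.26e-08).

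Lower in SF than in PC by both fits were mmp13a, mmp28, timp2a, timp2b, adamts1, MMP10 and ctsbb. The collagenase gene mmp13a (ENSAMXG00000006427) held 17.1, 11.5, 15.3, 2.89 and 20.5 CPM in SF and 22.7, 47.7, 83.1, 44.8 and 55.6 CPM in PC at 1 dpci, with no overlap (log2 fold change -1.90, SE 0.64, adjusted p = 0.0391). At 14 dpci it held 0.98, 3.22, 0, 0 and 0.993 CPM in SF and 18.6, 9.22, 6.36, 8.62 and 2.09 CPM in PC (log2 fold change -3.09, SE 0.92, adjusted p = 0.0162), and at 7 dpci means of 3.88 and 22.2 CPM, again with no overlap (log2 -2.48, adjusted p = 0.0101). At 6 hpci, the peak, the difference was not called (log2 -1.19, adjusted p = 0.197).

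The gene mmp28 was lower in SF at 30 dpci, with 13.5, 24.4, 15.2, 17.4 and 9.76 CPM against 38.6, 49.6, 29.1, 39.1 and 14.7 CPM (log2 fold change -1.44, SE 0.48, adjusted p = 0.0459), at 1 dps (log2 -1.96) and at 3 dpci (log2 -1.51). The inhibitor genes timp2a and timp2b were lower in SF by both fits at 1 dpci (timp2a, 43.8 against 93.5 CPM, log2 -1.49, adjusted p = 7.72e-07) and at 7 dpci (timp2b, 141 against 296 CPM, log2 -1.01, adjusted p = 0.0159). With the factor timp2a was also called lower in SF at 1 dps, 3 dps and 30 dpci, at -1.32, -1.01 and -1.12. The aggrecanase adamts1 was lower in SF at 3 dps and 7 dpci (log2 -1.89 and -1.67).

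MMP10 was lower in SF at 7 dpci, where SF libraries held 0, 1.37, 0.43, 0 and 0 CPM and PC libraries 10.2, 10.47, 2.98, 3.58 and 11.02 CPM with no overlap (log2 fold change -3.11, SE 1.03, adjusted p = 0.0499). At 3 dpci its direction was the other way with the factor, 7.91, 0.865, 25.4, 2.44 and 6.93 CPM against 0.536, 1.62, 1.54, 1.34 and 6.66 CPM (log2 fold change 2.703, SE 0.81, adjusted p = 0.0209), and it was not called without it. A second cathepsin B gene, ctsbb, was lower in SF at 3 dpci on few reads, at 0, 0, 0.507, 0 and 0 CPM against 0, 0, 0.769, 0.671 and 10.8 CPM (log2 fold change -4.39, SE 1.42, adjusted p = 0.0367), of which PC replicate 5 held most. Cathepsin S of the other type, ctss1, was higher in SF at 14 dpci, at 22.5, 2.15, 1.39, 7.34 and 6.95 CPM against 3.39, 1.54, 0, 3.83 and 1.05 CPM (log2 fold change 3.03, SE 0.74, adjusted p = 0.00257).

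Other calls were made by 1 of the fits alone. TIMP3 was lower in SF in the fit without the factor in uninjured ventricles, at 3 dps and at 7, 14 and 30 dpci, at -2.35, -1.74, -1.30, -1.54 and -1.82, and was not called with it. Without the factor 1 cathepsin was called lower in SF at 1 dps, 2 at 3 dps and 1 at 1 dpci, where the factor gave none lower. Lower mmp genes were 2 at 6 hpci (none with the factor) and 2 at 14 dpci (1 with it). Higher adamts genes, ADAMTS7 included, were 3 at 6 hps (2 with the factor) and 2 at 1 dps (none with it). Higher in SF without the factor alone were also 1 cathepsin at 6 hpci and 1 at 30 dpci. Among the calls made with the factor alone, ctsz (ENSAMXG00000031921), ctss2.1 and mmp14a were called higher in SF in conditions where the SF mean CPM was the lower one. At 30 dpci, ctsz libraries held 14.2, 2.15, 2.17, 6.07 and 5.21 CPM in SF and 21.6, 1.08, 8.15, 4.51 and 4.53 CPM in PC, with 2.07 in the fit with the factor (adjusted p = 0.0272) and -0.42 without it. For ctsd at the same time, 73.5, 50.9, 49.97, 46.8 and 44.2 CPM stood against 53.4, 46.4, 51.8, 49.7 and 49.9 CPM, with 1.50 (adjusted p = 0.0165) and 0.08.

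Further members named for the size of their value were called with the factor alone. In uninjured ventricles ctsk held 140.4, 134 and 103.2 CPM in SF and 86.1, 66.5 and 78.5 CPM in PC (log2 fold change 1.41, SE 0.32, adjusted p = 0.00136), and adamts15a, given above, reached 2.35 (adjusted p = 0.00419). At 7 dpci mmp13b, given above, was at 4.82 (adjusted p = 1.1e-05) with the factor and 1.86 (adjusted p = 0.0615) without it. At 6 hpci mmp19 held 26.2, 21.8, 20, 28.1 and 61.5 CPM in SF and 16.7, 15.2, 10.9, 26.5 and 9.96 CPM in PC (log2 fold change 1.95, SE 0.39, adjusted p = 0.000164), and at 6 hps mmp9 reached 2.37 (adjusted p = 0.00763), which was 0.72 (adjusted p = 0.684) and not called without SF replicate 1. At 1 dps mmp25b held 11.3, 4.63, 15.4, 3.68 and 4.47 CPM in SF and 6.48, 3.7, 3.06, 5.94 and 6.93 CPM in PC (log2 fold change 2.05, SE 0.58, adjusted p = 0.0117), and the ctsl.1 id ENSAMXG00000029871 held 6.27, 7.71, 11.6, 6.75 and 1.92 CPM in SF and 4.49, 2.47, 0, 1.78 and 6.93 CPM in PC (log2 fold change 2.57, SE 0.73, adjusted p = 0.0119). At 3 dps the id ENSAMXG00000001934 held 0.77, 0.552, 0.559, 5.45 and 0.568 CPM in SF and 0, 0, 0, 0 and 0.879 CPM in PC (log2 fold change 4.86, SE 1.42, adjusted p = 0.0171, and 5.88 without PC 3 dps replicate 5). In all these the libraries of SF and PC overlapped, save ctsk.

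The interaction between population and injury called few genes of any kind, with 0.0%, 0.314% and 0.117% of genes at the 3 early times (6 hpci to 3 dpci) and 0.986%, 0.949% and 0.4% at the later ones. The 1 member among them was adamts15a at 7 dpci. At the other 5 times edgeR gave 6, 12, 7, 6 and 6 members an unadjusted p under 0.05, in order of time, and DESeq2 called 1, 1, 0, 0 and 1. A call in 1 population and not in the other, as for mmp25b at 6 hpci or the cathepsins at 1 dpci, was therefore not shown to be a difference between SF and PC.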

How the data were processed

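Counts of reads per gene were deposited by the authors for 96 QuantSeq 3′ libraries. Per the submitters' processing notes, reads were handled with bcl2fastq 2.20.0, Trim Galore 0.6.4 and STAR 2.7.6a, and the annotation was a customised Ensembl set on Mexican tetra 2.0. The deposited regularised log2 table served for gene symbols only, and the deposited annotation for positions. Groups came from the sample titles, and replicates are separate fish.

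Counts were tested with edgeR 4.0.16 in R 4.3.3 (quasi-likelihood, TMM scaling, 1 RUVg factor from 9381 genes of low variation) in 1 fit over 20 groups. Of 27420 genes, 18763 had at least 1 CPM in at least 1 library and were tested. DESeq2 1.42.0, other scalings, filters and factor numbers, a replicate block and left-out replicates were alternatives. The procedure was tested on simulated data whose unwanted factor was independent of the groups, with recovery criteria revised after a first version failed. That test does not cover a factor tied to the groups, as here.

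The members, gene lists and tests were chosen with earlier results of these data known. Values in every library are given for up to 3 called members with the largest change in each injury and population comparison, those called in an interaction, both mmp9 ids and the timp genes. Other members called are given with their comparison or as counts. No sequences are shown.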

Additional observations from a re-analysis of the deposited data

Results flagged for a closer look

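In groups of 5 libraries, Dixon's test of the extreme value marked 18 of 97 gene-by-group sets among the members named in the report, and chance marks about 1 in 20 of unselected sets. These members were named for large differences, and where the other 4 libraries are at 0 a single read is enough, so the count of marks is not set against that rate. For mmp9 (ENSAMXG00000007722), replicate 1 of SF 6 hps held 77.3 CPM, and the other 4 libraries held 1.67 to 12.8 CPM. For MMP10 (ENSAMXG00000005283), replicate 5 of PC 1 dps held 23.1 CPM, and the other 4 libraries held 2.29 to 3.08 CPM. For ctsla (ENSAMXG00000042927), replicate 2 of PC 1 dpci held 98.7 CPM, and the other 4 libraries held 41.8 to 58.2 CPM. For ctss2.1 (ENSAMXG00000030026), replicate 1 of PC 3 dpci held 285 CPM, and the other 4 libraries held 196 to 216 CPM. For adamts15b (ENSAMXG00000037225), replicate 1 of SF 6 hps held 44.0 CPM, and the other 4 libraries held 1.56 to 5.83 CPM. For ctsl.1 (ENSAMXG00000010192), replicate 4 of SF 3 dps held 49.0 CPM, and the other 4 libraries held 0 to 2.21 CPM. For ctsl.1 (ENSAMXG00000001934), replicate 4 of SF 3 dps held 5.45 CPM, and the other 4 libraries held 0.552 to 0.770 CPM. For ctsl.1 (ENSAMXG00000001934), replicate 5 of PC 3 dps held 0.879 CPM, and the other 4 libraries held 0 CPM. For mmp19 (ENSAMXG00000006031), replicate 5 of SF 6 hpci held 61.5 CPM, and the other 4 libraries held 20 to 28.1 CPM.

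For ctsl.1 (ENSAMXG00000034019), replicate 4 of SF 1 dpci held 22.4 CPM, and the other 4 libraries held 0 to 1.91 CPM. For ctsbb (ENSAMXG00000031360), replicate 3 of SF 3 dpci held 0.507 CPM, and the other 4 libraries held 0 CPM. For ctsbb (ENSAMXG00000031360), replicate 5 of PC 3 dpci held 10.8 CPM, and the other 4 libraries held 0 to 0.769 CPM. For MMP10 (ENSAMXG00000005283), replicate 3 of SF 3 dpci held 25.4 CPM, and the other 4 libraries held 0.865 to 7.91 CPM. For MMP10 (ENSAMXG00000005283), replicate 5 of PC 3 dpci held 6.66 CPM, and the other 4 libraries held 0.536 to 1.62 CPM. For ctsl.1 (ENSAMXG00000034019), replicate 3 of SF 7 dpci held 171 CPM, and the other 4 libraries held 0 to 38.4 CPM. For ctsl.1 (ENSAMXG00000034019), replicate 2 of PC 14 dpci held 5.12 CPM, and the other 4 libraries held 0 CPM. For ctss1 (ENSAMXG00000033203), replicate 1 of SF 14 dpci held 22.5 CPM, and the other 4 libraries held 1.39 to 7.34 CPM. For ctsd (ENSAMXG00000020367), replicate 1 of SF 30 dpci held 73.5 CPM, and the other 4 libraries held 44.2 to 50.9 CPM.

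The injury response of adamts15a at 7 dpci differed between the populations by the interaction in edgeR's quasi-likelihood test, at -2.51 on the log2 scale (adjusted p = 0.0187, SF minus PC). The level rose in PC and the change in SF was not called. Without the factor the interaction was -2.40 (adjusted p = 0.0547). With the factor it was not called when replicate 1, 2 or 3 was left out.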

How the results depend on the processing

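Of the 147 calls among members, those kept under each of the 12 settings were 6 of 52 for injury, 1 of 91 for SF against PC, 0 of 1 for the interaction and 0 of 3 for sham. Those for injury were mmp9 and mmp13a (ENSAMXG00000006427) at 6 hpci in both populations, mmp25b at 6 hpci in PC and ctsla at 1 dpci in PC, and the other was ADAMTS7 at 6 hps. Over all alternatives, the 3 that leave out a library chosen after seeing the data included, 1218 of 1816 values kept their call, 585 lost it and 13 changed sign. The cause of these changes was not tested. With no filter beyond 1 read, the number of members called became 1 (PC 14 dpci), 9 (SF against PC uninjured), 16 (SF against PC 6 hps), 12 (SF against PC 6 hpci), 15 (SF against PC 3 dpci), 2 (sham PC 3 dps). Over all genes, calls between SF and PC in uninjured ventricles went from 1084 of 18763 tested to 1292 of 21461. Without the factor, the number of members called became 15 (SF 1 dpci), 21 (SF 3 dpci), 19 (SF 7 dpci), 15 (SF 14 dpci), 13 (PC 3 dpci), 15 (PC 7 dpci), 4 (PC 14 dpci), 4 (SF against PC 6 hps), 6 (SF against PC 1 dps), 7 (SF against PC 3 dps), 4 (SF against PC 1 dpci), 5 (SF against PC 3 dpci), 6 (SF against PC 14 dpci), 4 (SF against PC 30 dpci), 0 (interaction 7 dpci), 4 (sham SF 3 dps), 3 (sham PC 3 dps). With 2 factors, the number of members called became 3 (SF 1 dpci), 0 (SF 3 dpci), 1 (SF 7 dpci), 3 (PC 6 hpci), 2 (PC 1 dpci), 0 (PC 3 dpci), 1 (PC 7 dpci), 1 (SF against PC uninjured), 5 (SF against PC 6 hps), 2 (SF against PC 1 dps), 1 (SF against PC 3 dps), 2 (SF against PC 1 dpci), 2 (SF against PC 3 dpci), 2 (SF against PC 14 dpci), 0 (SF against PC 30 dpci), 1 (sham SF 3 dps). Calls over all genes moved with 2 factors as well, at 3 dpci from 854 to 143 in SF and from 355 to 43 in PC. Between SF and PC they went from 1253 to 608 at 30 dpci and from 1298 to 1379 at 6 hpci. Fitting only the libraries compared, the number of members called became 5 (SF 6 hpci), 2 (SF 1 dpci), 3 (SF 3 dpci), 1 (SF 14 dpci), 2 (SF against PC uninjured), 2 (SF against PC 1 dps), 4 (SF against PC 3 dps), 1 (SF against PC 6 hpci), 4 (SF against PC 1 dpci), 5 (SF against PC 3 dpci), 4 (SF against PC 7 dpci), 1 (SF against PC 30 dpci), 1 (interaction 1 dpci), 1 (interaction 14 dpci), 1 (sham SF 3 dps), 0 (sham PC 3 dps). Over all genes this setting took calls between SF and PC at 6 hpci from 1298 to 83, and those in PC at 1 dpci from 266 to 599. With DESeq2, the number of members called became 2 (PC 14 dpci), 1 (interaction 6 hpci), 1 (interaction 1 dpci), 2 (interaction 7 dpci), 1 (interaction 30 dpci), 1 (sham SF 3 dps), 2 (sham PC 3 dps). Over all genes DESeq2 called 148 in PC at 14 dpci and 350 for the interaction at 7 dpci, against 81 and 185 with edgeR. Without PC 3 dps replicate 5, the number of members called became 12 (PC 3 dpci). When each replicate number was left out of all groups in turn, the counts ran from 2 to 4 (SF 6 hpci), 2 to 9 (SF 1 dpci), 2 to 20 (SF 3 dpci), 0 to 5 (SF 7 dpci), 0 to 4 (SF 14 dpci), 1 to 2 (SF 30 dpci), 3 to 7 (PC 6 hpci), 5 to 12 (PC 1 dpci), 2 to 13 (PC 3 dpci), 1 to 9 (PC 7 dpci), 0 to 1 (PC 14 dpci), 1 to 5 (SF against PC uninjured), 6 to 10 (SF against PC 6 hps), 3 to 10 (SF against PC 1 dps), 2 to 12 (SF against PC 3 dps), 4 to 9 (SF against PC 6 hpci), 2 to 8 (SF against PC 1 dpci), 3 to 9 (SF against PC 3 dpci), 5 to 9 (SF against PC 7 dpci), 3 to 11 (SF against PC 14 dpci), 0 to 7 (SF against PC 30 dpci), 0 to 1 (interaction 7 dpci), 0 to 3 (sham SF 3 dps), 0 to 2 (sham PC 3 dps). Over all genes, calls in SF at 7 dpci went from 568 to 123 without replicate 1 and to 1096 without replicate 2. Values that changed sign in the SF against PC comparison without the factor were ctsz (ENSAMXG00000031921) at -0.42 (1 dps), -0.48 (7 dpci) and -0.42 (30 dpci), ctss2.1 at -0.37 (3 dps), -0.61 (1 dpci), -0.50 (7 dpci) and -0.83 (30 dpci), and mmp14a at -0.15 (30 dpci), all log2. With 2 factors ctsz was at -0.02 (1 dps). Fitting only the libraries compared, ctsbb was at 3.31 (3 dpci), timp2a at 0.06 (30 dpci) and the ctsl.1 id ENSAMXG00000034019 at 2.29 (sham SF). When a replicate number was left out, the last ran from -8.195 to 1.195, the latter without replicate 3. Libraries with the same replicate number did not deviate together (mean r 0.001 over 414 pairs, against -0.000 over 1656 pairs with other numbers), so the numbers were not read as pairing. With the replicate block the counts were 3 (SF 6 hpci), 6 (SF 1 dpci), 7 (SF 3 dpci), 2 (SF 7 dpci), 4 (SF 14 dpci), 2 (SF 30 dpci), 6 (PC 6 hpci), 10 (PC 1 dpci), 7 (PC 3 dpci), 4 (PC 7 dpci), 4 (SF against PC uninjured), 10 (SF against PC 6 hps), 11 (SF against PC 1 dps), 13 (SF against PC 3 dps), 8 (SF against PC 6 hpci), 6 (SF against PC 1 dpci), 8 (SF against PC 3 dpci), 9 (SF against PC 7 dpci), 10 (SF against PC 14 dpci), 8 (SF against PC 30 dpci), 1 (interaction 7 dpci), 2 (sham SF 3 dps), 1 (sham PC 3 dps). Library totals of 672292 to 2586602 counts limit members with few reads, since 38 of 84 had at most 100.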
